A study of Mus musculus with 8 samples.

Results

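Genes that restrain MAP kinase signalling were followed in mouse embryonic fibroblasts with and without the m6A writer Mettl3. They are the dual-specificity phosphatases Dusp1, Dusp4, Dusp5, Dusp6, Dusp8, Dusp10 and Dusp16 and the Sprouty genes Spry1, Spry2 and Spry4, 10 of 39017 gene identifiers in the count table, chosen by gene family. The choice does not cover these families: Dusp2, Dusp7, Dusp9 and Spry3 are left to a list of other inhibitors below. All 10 passed the filter on low counts that left 18952 genes for testing. MAP kinases (ERK, JNK and p38) are switched on by phosphorylation of a threonine and a tyrosine, and these phosphatases remove both phosphates. Sprouty proteins act upstream and restrain receptor tyrosine kinase signalling on its way to ERK. Many of these genes are themselves switched on by the signal they dampen, as immediate-early or delayed-early genes with short-lived mRNAs, and so form a negative feedback.

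The cells were E13.5 embryonic fibroblasts grown in serum, and fell into 4 groups of 2 libraries. Control total and knockout total are poly(A) RNA of unstressed control and Mettl3 knockout cells. Control granule and knockout granule are poly(A) RNA of a fraction enriched for stress granules by centrifugation, from the same genotypes after arsenite (500 µM sodium arsenite, 30 min). Arsenite causes oxidative stress, stalls translation and gathers mRNAs in cytoplasmic granules. Mettl3 was deleted by a Cre switched on with 4-hydroxytamoxifen, 500 nM for 48 h, and the cells were taken after loss of the protein and of m6A had been checked at 7 days. Neither what drives the Cre nor whether control cells received the drug is given in the sources used here. The design text calls the replicates biological but does not say whether they came from separate embryos or cultures, so the p-values measure the spread between these libraries. Granule libraries differ from total libraries in both stress and fraction, and these cannot be told apart. Levels are CPM, counts scaled to the size of the library, which are shares: fewer cells expressing a gene and less of its RNA per cell cannot be told apart, nor can a fall of one mRNA from a rise of the others.

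The regulatory sequence in front of 3 members is shown because Dusp1 and Dusp5 had the most alike levels across the libraries, and because Dusp8 shares a motif with Dusp1. The RefSeq promoter table (GRCm38.p6, 250 bases before to 50 after the start site) holds 8 of the 10 members. Dusp4 and Spry4 were not matched. The sequences run 5′ to 3′ on the gene's strand, and capitals mark matches, on either strand, to TGACG, to the full cAMP response element TGACGTCA that contains it, and to the CArG box bound by serum response factor.
Dusp1, chr17:26508423-26508722, minus strand: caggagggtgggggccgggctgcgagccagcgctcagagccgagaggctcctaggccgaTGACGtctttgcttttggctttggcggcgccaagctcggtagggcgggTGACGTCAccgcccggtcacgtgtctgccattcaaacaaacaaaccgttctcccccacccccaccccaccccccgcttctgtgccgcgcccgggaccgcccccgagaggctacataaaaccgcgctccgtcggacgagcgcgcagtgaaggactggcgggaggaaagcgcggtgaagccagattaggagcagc
Dusp5, chr19:53528895-53529194, plus strand: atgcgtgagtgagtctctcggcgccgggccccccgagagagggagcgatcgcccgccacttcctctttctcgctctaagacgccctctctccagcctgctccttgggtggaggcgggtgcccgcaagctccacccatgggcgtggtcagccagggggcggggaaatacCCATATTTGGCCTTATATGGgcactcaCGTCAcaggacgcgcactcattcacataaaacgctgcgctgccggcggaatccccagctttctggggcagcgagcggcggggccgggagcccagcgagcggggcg
Dusp8, chr7:142095235-142095534, minus strand: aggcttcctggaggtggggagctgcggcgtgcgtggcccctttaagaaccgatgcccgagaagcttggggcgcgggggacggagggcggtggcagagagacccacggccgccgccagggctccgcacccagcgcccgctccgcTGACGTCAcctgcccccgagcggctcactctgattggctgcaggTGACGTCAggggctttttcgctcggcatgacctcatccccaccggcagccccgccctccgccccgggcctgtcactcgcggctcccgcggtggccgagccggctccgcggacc
Dusp1 holds TGACGTCA once, 143 to 136 bases before the start site, and Dusp8 holds it at 107 to 100 and at 63 to 56 bases before it. This motif is in 1.88% of 27025 promoters of the same length, and the shorter TGACG is in 21% of them and in 4 of the 8 members (Dusp1, Dusp5, Dusp8 and Dusp16). Dusp5 holds a pair of adjoining CArG boxes, at 82 to 73 and 72 to 63 bases before the start, a motif found in 1.57% of the promoters and in no other member matched. The AP-1 motif TGANTCA, in 7.93% of promoters, is in none of the 8 windows. A match describes letters only.

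Short-lived mRNAs often carry AU-rich elements in the 3′ UTR, and m6A falls mostly on the motif of which GGACT is a frequent form. ATTTA is in the 3′ UTR of all 10 members and of 67.3% of 15236 tested genes with a 3′ UTR, and the heptamer TATTTAT is in 5 members (Dusp1, Dusp8, Spry1, Spry2, Spry4) and in 28.6% of those genes. Windows of 25 bases (GRCm38, in the gene's direction, motif in capitals) show the Dusp1 heptamers, the first heptamer of Spry1 and of Spry2, and a GGACT of Dusp6 and of Spry2, the 2 members richest in that motif.
Dusp1, chr17:26506161-26506185: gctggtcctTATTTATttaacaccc
Dusp1, chr17:26505872-26505896: ttttaccttTATTTATttttgtgta
Dusp1, chr17:26505676-26505700: atgtttgttTATTTATgatctgaag
Spry1, chr3:37644411-37644435: tgtaaagaaTATTTATtatgcgaat
Spry2, chr14:105892094-105892118: tgtaaagaaTATTTATttgaagttt
Dusp6, chr10:99266555-99266579: acccaagcagGGACTggacatccat
Spry2, chr14:105892177-105892201: atttccctttGGACTtgatgtatat
The Dusp1 heptamers lie 104, 393 and 589 bases after the stop codon, in a 3′ UTR of 690 bases. The Spry1 and Spry2 windows have the same letters up to and including the heptamer. GGACT density was 3.35 per kb of transcript in Spry2 and 2.86 in Dusp6, against a median of 1.06 over those genes and of 1.54 over the members, and was lowest in Spry4 at 0.421. No map of m6A was used, so these are letters and not methylated sites.

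Total counts ran from 67257220 to 123508539 a library. The targeted gene Mettl3 was measured at 25.4 and 24.9 CPM in control total and at 6.005 and 7.35 CPM in knockout total, and at 15.7 and 15.4 CPM in control granule and 5.56 and 6.38 CPM in knockout granule. It fell by 1.91 on the log2 scale in total RNA (SE 0.27, adjusted p = 0.0345 by edgeR's quasi-likelihood test) and by 1.38 in the granule fraction (SE 0.26, adjusted p = 0.0208); 18.4% of its exon bases overlap Tox4. The knockout total libraries stood apart from each other: the median gene differed by 0.81 on the log2 scale between them, against 0.10 to 0.31 within the other groups, and the difference followed gene GC content (Spearman's rho -0.73 across genes), as did that between the control total libraries, with the opposite sign (0.76). Knockout total replicate 1 had 7.60% of its counts on mitochondrial genes, knockout granule 6.16% and 8.81%, and the other 5 libraries 0.590% to 0.881%. All 10 fibroblast markers were above 1 CPM in every library, with summed levels of 6160 to 9383 CPM. Among markers of other cells, those above 1 CPM in both libraries of each group were 2 of 5 epithelial, 2 of 4 endothelial, 5 of 6 blood, 1 of 4 neural and 1 of 4 muscle markers. Epithelial markers summed to 330 to 425 CPM in control total, 726 to 854 in control granule, 141 to 159 in knockout total and 580 to 767 in knockout granule. These sums rest on Krt18 (46.9 to 707 CPM over all libraries) and Krt14 (48.7 to 141), as no other epithelial marker exceeded 4.67 CPM. The neural sum was 29.2 to 39.6 CPM in control total and 4.43 to 4.94 in control granule, with 11.3 to 23.4 in knockout total and 11 to 12.4 in knockout granule, and Sox2 was at 0 in 5 libraries. It rests mostly on Tubb3, at 4 to 39.4 CPM over all libraries. Endothelial markers summed to 13.3 to 14.8 CPM in control total, 6.24 to 8.21 in control granule, 14.9 to 20.1 in knockout total and 10.8 to 14.4 in knockout granule; blood markers summed to 58.3 to 103 CPM and muscle markers to 1.87 to 6.84 CPM over all libraries. The part of these markers in the member results was not tested.

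In control cells the granule fraction held higher shares of Dusp1, Dusp5, Dusp6, Spry2 and Spry4 than total RNA did, by 3.18-fold for Spry2 to 9.26-fold for Dusp5. These 5 of 10 members passed the test (adjusted p under 0.05 by edgeR's quasi-likelihood test over all 18952 genes), all higher, where 10.1% of all genes passed, 5.89% as higher and 4.17% as lower. The median log2 difference was 1.33 over the members and -0.06 over all genes tested. Granule libraries lay above total libraries without overlap for 9 members and below for Dusp4, while 35.2% of all genes lay above and 37.3% below, 72.4% together. Without any 1 of the 4 control libraries no member passed (6 or 7 were still under an unadjusted p of 0.05), where 0 to 75 of all genes passed; the lone library left in a group was assumed to vary like the others. Without knockout total replicate 1, and without replicate 2, 7 members passed, where 40.6% and 39.9% of all genes did.

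In knockout cells 5 members were again higher in the granule fraction, namely Dusp1, Dusp5, Dusp8, Spry2 and Spry4, and Dusp4 was lower. These 6 of 10 compare with 17.6% of all genes (9.17% higher and 8.47% lower). The members' median log2 difference was 1.24 against 0.04 over all genes. The groups did not overlap for 9 members, 8 higher and 1 lower, where 58.0% of all genes did not, 31.5% higher and 26.5% lower. Without knockout granule replicate 1 no member passed (6 at an unadjusted p under 0.05), and without replicate 2 only Dusp1 did (7 unadjusted), where 1.47% and 1.22% of all genes passed. Without knockout total replicate 1 the count was 7 and without replicate 2 it was 6, where 34.0% and 48.2% of all genes passed. Dusp1, Dusp5, Spry2 and Spry4 were called higher in both genotypes.

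**Figure D1:**
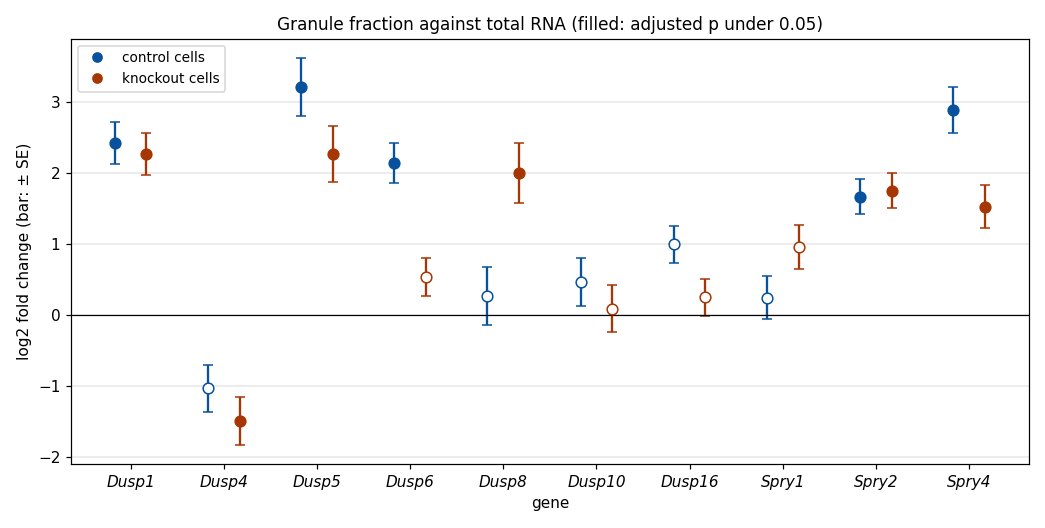
Log2 fold change of each member, granule fraction against total RNA, in control and in knockout cells; points are estimates of the edgeR fit, bars their standard errors, and filled points passed the adjusted threshold. Dusp5 and Spry4 lie highest in control cells and Dusp1 and Dusp5 in knockout cells, and Dusp4 lies below 0 in both.

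Dusp1 (also MKP-1, chromosome 17), a nuclear phosphatase of p38, JNK and ERK and a classic immediate-early gene, was measured at 49.1 and 44.9 CPM in control total and at 255 and 248 CPM in control granule. In knockout cells it was at 30.4 and 42.3 CPM in total RNA and at 204 and 147 CPM in the granule fraction. Every granule library was thus above every total library. The log2 difference was 2.42 in control cells (SE 0.29, adjusted p = 0.00683) and 2.27 in knockout cells (SE 0.29, adjusted p = 0.00399). Knockout granule lay below control granule without overlap, by -0.52 on the log2 scale (SE 0.28), but this did not pass the test (adjusted p = 0.265).

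Dusp5 (chromosome 19), a nuclear phosphatase that acts on ERK, had the largest granule difference of the members in control cells. Its level was 31.3 and 29.1 CPM in control total and 288 and 272 CPM in control granule, a log2 difference of 3.21 (SE 0.41, adjusted p = 0.00817). Knockout total libraries stood at 19.7 and 46.0 CPM, on either side of the controls, and knockout granule libraries at 162 and 154 CPM, with a log2 difference of 2.27 (SE 0.39, adjusted p = 0.0103). All granule libraries exceeded all total libraries, and both knockout granule libraries were below both control granule libraries. That last difference was -0.82 on the log2 scale (SE 0.38) with an adjusted p of 0.199. Of the Dusp5 exon bases 22.1% overlap the antisense gene AC137853.2, and whether reads were counted by strand is not given in the sources used here, so the level is uncertain to that extent.

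Dusp4 (chromosome 8), a nuclear phosphatase of the same subfamily as Dusp1 and Dusp5, had lower granule than total levels. Control total libraries were at 47.2 and 51.2 CPM and control granule libraries at 25.6 and 22.4 CPM. Knockout total libraries were at 44.5 and 80.9 CPM and knockout granule libraries at 24.6 and 19.9 CPM. Each granule library was below each total library in both genotypes. The log2 difference was -1.04 in control cells (SE 0.33, adjusted p = 0.0822) and -1.495 in knockout cells (SE 0.33, adjusted p = 0.0231), so that it was called lower in knockout cells only, and the 2 differences were not shown to differ (interaction -0.46, SE 0.46, adjusted p = 0.545).

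Dusp6 (also MKP-3, chromosome 10), the cytoplasmic phosphatase specific to ERK and a direct read-out of ERK and FGF signalling, showed the widest genotype difference in unstressed cells. It was at 21.2 CPM in both control total libraries and at 72.2 and 70.4 CPM in knockout total, a 3.36-fold difference. In the granule fraction it was at 98.4 and 89.4 CPM in control and at 123 and 82.6 CPM in knockout cells, where the groups overlapped. The log2 difference between knockout and control total was 1.75 (SE 0.28) with an adjusted p of 0.0502, just outside the threshold; over 17 alternative settings it ran from 1.64 to 1.88 and passed in 8 of them. The granule to total difference was 2.15 in control cells (SE 0.28, adjusted p = 0.0086) and 0.53 in knockout cells (SE 0.27, adjusted p = 0.208). The interaction, -1.62 (SE 0.38), had an adjusted p of 0.0896. It was -1.61 without knockout total replicate 1 and -1.81 without replicate 2, and ran from -2.05 to -1.37 leaving out any 1 library. Its adjusted p ran up to 0.383 over 16 alternatives.

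Dusp8 (chromosome 7) encodes a phosphatase of JNK and p38. Its levels were 31.3 and 28.1 CPM in control total and 38.1 and 33.0 CPM in control granule. In knockout cells total RNA held 8.67 and 22.0 CPM and the granule fraction 57.2 and 65.0 CPM. Knockout total libraries were the lowest and knockout granule libraries the highest of the 8. The granule to total difference was 1.996 on the log2 scale in knockout cells (SE 0.43, adjusted p = 0.0199) and 0.26 in control cells (SE 0.41, adjusted p = 0.705). The interaction was 1.74 (SE 0.58, adjusted p = 0.132). Dusp8 also had the largest gap between the knockout total libraries of any member, 1.34 on the log2 scale; without replicate 1, the library of higher mitochondrial share, the knockout granule difference was 1.47 and the interaction 1.2 (adjusted p = 0.0104), and without replicate 2 they were 2.69 and 2.39. Over 16 alternatives the adjusted p of the interaction ran from 3.63e-05 to 0.396.

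Dusp10 (also MKP-5, chromosome 1), another phosphatase of JNK and p38, had the lowest level per length in 3 of the 4 groups. It was at 5.06 and 6.12 CPM in control total, 8.49 and 6.94 in control granule, 15.9 and 9.12 in knockout total and 14.1 and 12.6 in knockout granule. All 4 knockout libraries were above all 4 control libraries. Neither genotype difference passed the test: it was 1.16 on the log2 scale in total RNA (SE 0.34, adjusted p = 0.143) and 0.79 in the granule fraction (SE 0.34, adjusted p = 0.172). Between granule and total RNA the differences were 0.47 in control cells (adjusted p = 0.385) and 0.09 in knockout cells (adjusted p = 0.875).

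Dusp16 (also MKP-7, chromosome 6), which acts mainly on JNK, was at 34.1 and 46.7 CPM in control total and at 83.0 and 77.9 CPM in control granule, with no overlap. Knockout total held 59.5 and 54.1 CPM and knockout granule 71.4 and 63.7 CPM, again without overlap but closer together. The control difference of 0.99 on the log2 scale (SE 0.26) had an adjusted p of 0.0507, and the knockout difference of 0.25 (SE 0.26) one of 0.538. Without knockout total replicate 1 the control difference of 1.001 passed (adjusted p = 0.000745), and over 17 alternatives its adjusted p ran from 0.000735 to 0.292.

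Spry4 (chromosome 18), which restrains signalling at the Ras and Raf step, had the largest granule difference among the Sprouty genes in control cells. Control total was at 8.81 and 11.05 CPM and control granule at 80.7 and 66.7 CPM. Knockout total was at 16.5 and 22.8 CPM, above both control libraries, and knockout granule at 64.8 and 48.5 CPM, below both. The granule to total difference was 2.89 on the log2 scale in control cells (SE 0.32, adjusted p = 0.00491) and 1.53 in knockout cells (SE 0.30, adjusted p = 0.0157). The interaction was -1.36 (SE 0.42, adjusted p = 0.116). It was -1.59 without knockout total replicate 1 and -1.29 without replicate 2, and ran from -1.7 to -1.18 leaving out any 1 library. Its adjusted p ran up to 0.399 over 16 alternatives.

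Spry2 (chromosome 14), an inhibitor of FGF receptor signalling that also binds the ubiquitin ligase Cbl, was at 20.2 and 22.7 CPM in control total and at 69.6 and 66.8 CPM in control granule. In knockout cells it was at 30.4 and 33.0 CPM in total RNA and at 112 and 101.2 CPM in the granule fraction. Knockout libraries were above control libraries in each fraction. Granule and total RNA differed by 1.67 on the log2 scale in control cells (SE 0.24, adjusted p = 0.0108) and 1.75 in knockout cells (SE 0.24, adjusted p = 0.00499), with an interaction of 0.08 (SE 0.34). The genotype differences, 0.56 in total RNA (adjusted p = 0.195) and 0.65 in the granule fraction (adjusted p = 0.125), did not pass.

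Spry1 (chromosome 3), known for restraining GDNF signals in the developing kidney, had the smallest granule difference of the Sprouty genes in both genotypes. It was at 17.8 and 16.4 CPM in control total, 20.3 and 20.1 in control granule, 16.1 and 13.2 in knockout total and 35.4 and 21.5 in knockout granule. The knockout granule libraries were the highest of the 8 but far from each other. The granule to total difference was 0.24 on the log2 scale in control cells (adjusted p = 0.626) and 0.96 in knockout cells (SE 0.31, adjusted p = 0.0667). Of its exon bases 24.4% overlap the antisense gene Gm42922, with the same limit as for Dusp5.

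**Figure D2:**
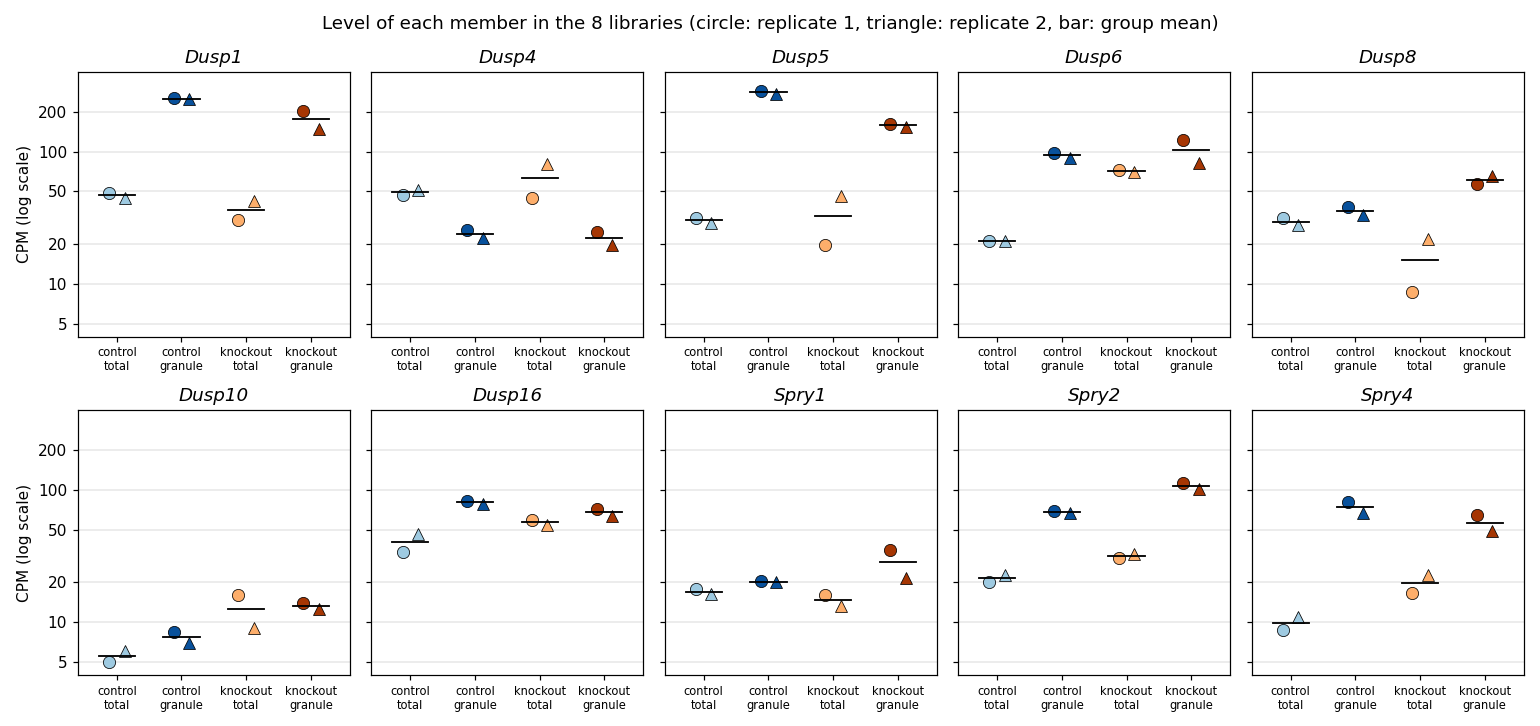
Level of each member in each of the 8 libraries, in CPM on a log axis, 2 libraries a group, with the group mean as a line. Every granule library is higher than every total library for Dusp1, Dusp5, Dusp6, Dusp8, Dusp16, Spry1, Spry2 and Spry4, and lower for Dusp4. The nearest granule and total libraries lie close for Dusp6, Dusp8, Dusp16 and Spry1. The share of all genes that separate in this way was not counted. Within a genotype, granule and total libraries did not overlap for 72.4% of all genes in control cells and 58.0% in knockout cells. The separation was therefore not shown to be particular to the members.

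The order of the members was compared per length, as CPM per kb of exon (the union of annotated exons). In control total it ran from Dusp4 at 17.9 ± 1.04 (SD, n = 2) through Dusp1 at 14.2 ± 0.90, Dusp5 at 12.2 ± 0.65 and Spry2 at 10.3 ± 0.87 to Dusp6 at 6.77. Dusp8 at 6.09 ± 0.47, Spry1 at 5.87 ± 0.34 and Dusp16 at 5.18 ± 1.14 did not differ beyond their spread, and nor did Spry4 at 2.09 ± 0.33 and Dusp10 at 1.84 ± 0.25. In control granule Dusp5 came first at 113 ± 4.70 and Dusp1 next at 76.0 ± 1.63, followed by Spry2 at 32.7 ± 0.92 and Dusp6 at 30.0 ± 2.03, which lay within their spread, while Dusp4 was at 8.75 ± 0.83 and Dusp10 last at 2.54 ± 0.36. In knockout total Dusp4 at 22.9 ± 9.38 and Dusp6 at 22.8 ± 0.40 led and did not differ beyond their spread. In knockout granule Dusp5 at 63.9 ± 2.44, Dusp1 at 53.0 ± 12.04 and Spry2 at 51.1 ± 3.76 led, with Dusp1 within its spread of both others, and Dusp10 was again last at 4.38 ± 0.35. With the longest coding transcript as the length, Dusp1 came first in control total at 23.6, in control granule at 126 and in knockout granule at 88.2, and Dusp6 in knockout total.

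Profiles of log2 CPM over the 8 libraries, which share 4 group means, were most alike for Dusp1 and Dusp5 (Pearson's r = 0.983, a description over 8 libraries). Spry4 was nearest to Dusp5 (r = 0.940), Dusp16 to Spry4 (0.930) and Spry2 to Spry4 (0.926). Dusp4 was the least alike of all members for each of the others, with r from -0.862 with Dusp1 to -0.266 with Dusp10. Among 10251 other genes of at least 5 CPM on average, the profile nearest to Dusp1 was that of Arc (r = 0.993), to Dusp6 that of Twist1 (0.985), to Spry2 that of Arl4a (0.997, with Egr2 next at 0.992) and to Spry4 that of Aggf1 (0.991).

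Loss of Mettl3 moved no member past the threshold in unstressed total RNA. There, 0.412% of all genes passed by edgeR's quasi-likelihood test (0.274% higher and 0.137% lower), 4 members (Dusp6, Dusp10, Spry2 and Spry4, all higher) had an unadjusted p under 0.05, as did 4705 of the 18952 genes, and DESeq2's Wald test called 3 (Dusp6, Dusp10 and Spry4), where it called 13.2% of all genes. Knockout libraries lay above control libraries for 5 members and below for 3, against 24.4% and 24.7% of all genes, or 49.1% in either direction. For Spry4 the difference was 0.99 on the log2 scale (SE 0.30, adjusted p = 0.145), and it passed without knockout total replicate 1 (1.2, adjusted p = 0.00967), with a range of 0.00965 to 0.628 over 17 alternatives. Without that library 2 members passed (Dusp6 and Spry4), and without replicate 2, 7 did (these and Dusp5, Dusp8, Dusp10, Dusp16 and Spry2), where 5.52% and 47.8% of all genes passed. Dusp5 changed sign between these settings, from 0.61 without replicate 1 to -0.51 without replicate 2.

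In the granule fraction no member differed between genotypes at the adjusted threshold either, although 9.45% of all genes did (5.79% higher and 3.66% lower); 2 members (Spry2 and Dusp10) had an unadjusted p under 0.05, as did 5291 of the 18952 genes, and DESeq2 called 0 members and 17.8% of all genes. The log2 differences ran from -0.82 for Dusp5 to 0.79 for Dusp10, 5 above and 5 below 0. Knockout libraries were above control libraries for Dusp8, Dusp10, Spry1 and Spry2 and below for Dusp1, Dusp5, Dusp16 and Spry4, where 40.4% of all genes lay above and 36.6% below, 77.0% together. Without knockout total replicate 1, or without replicate 2, neither of which enters these means, 5 members passed: Dusp8, Dusp10 and Spry2 higher and Dusp1 and Dusp5 lower, where 39.0% and 38.9% of all genes passed.

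**Figure D3:**
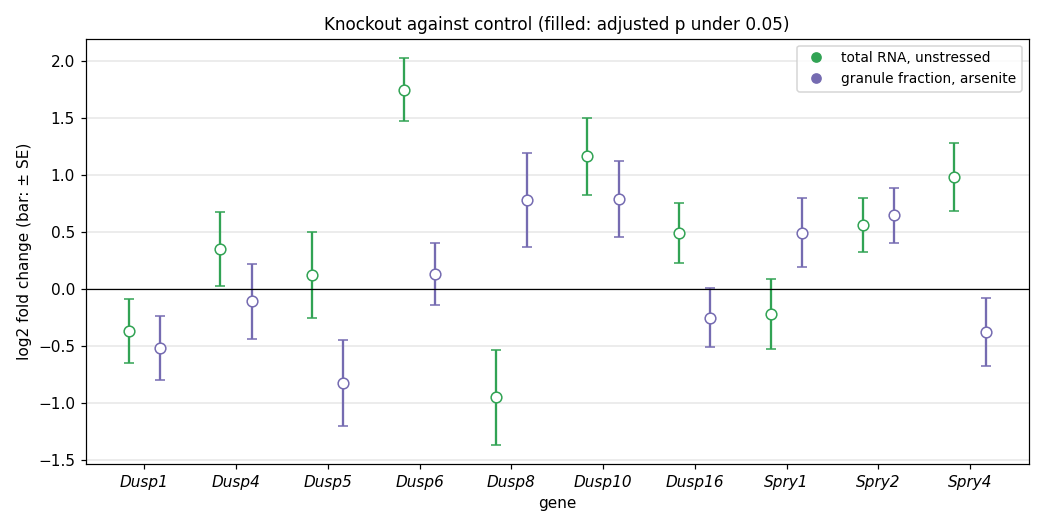
Log2 fold change of each member, knockout against control cells, in total RNA and in the granule fraction; points are estimates of the edgeR fit and bars their standard errors. Dusp6 lies highest in total RNA at 1.75, and no point passed the adjusted threshold in either fraction.

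The genotypes were compared in their granule to total difference by an interaction term. No member passed (0.517% of all genes did, 0.401% higher and 0.116% lower), 3 had an unadjusted p under 0.05 (4898 of the 18952 genes did), Dusp6 and Spry4 with a smaller and Dusp8 with a larger difference in knockout cells, and DESeq2 called the same 3, where it called 14.5% of all genes. The values were negative for 7 members and positive for 3, with a median of -0.42 against 0.09 over all genes. Without knockout total replicate 1, 5 members passed (Dusp4, Dusp5, Dusp6 and Spry4 negative and Dusp8 positive), and without replicate 2, 5 passed (Dusp6, Dusp10, Dusp16 and Spry4 negative and Dusp8 positive), where 18.6% and 46.4% of all genes did. Dusp6, Dusp8 and Spry4 were in both sets.

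The wider pathway was read from 76 genes in 6 lists. In control cells 18 were called between granule and total, 17 higher and 1 lower, with a median log2 difference of 0.60. Of all genes 10.1% were called there, with a median of -0.06. In knockout cells 16 were called, 13 higher and 3 lower, with a median of 0.02. Of all genes 17.6% were called there, with a median of 0.04. Between genotypes none of the 76 was called in total RNA, where 0.412% of all genes were. In the granule fraction 11 were, 6 higher and 5 lower, against 9.45% of all genes. The same shares of all genes apply to each list below. The members' own medians, 1.33 and 1.24, stood above the 0.60 and 0.02 of the 76 genes, which describes the lists and was not tested.

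Ligands and receptors gave 6 of 17 genes higher in control granule and 4 of 17 in knockout granule. Hbegf, a ligand of the EGF receptor made in response to ERK, was at 84.2 and 81.6 CPM in control total and at 531 and 516 CPM in control granule, and at 56.2 and 79.0 against 760 and 723 CPM in knockout cells. Its log2 differences were 2.66 (SE 0.27, adjusted p = 0.00475) and 3.46 (SE 0.28, adjusted p = 0.00213). Ereg, another such ligand, and Met, the receptor of HGF, were higher in control granule by 3.14 (adjusted p = 0.0296) and 2.29 (adjusted p = 0.0135); Ereg stood at 70.1 and 14.3 CPM in the knockout total libraries. Between genotypes in the granule fraction 4 of 17 were called, 3 higher and 1 lower. Areg was higher by 1.45 (SE 0.32, adjusted p = 0.0322) and the PDGF receptor gene Pdgfrb by 1.45 (SE 0.33, adjusted p = 0.0363). The FGF receptor gene Fgfr2 was lower by -0.98 (SE 0.26).

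Of the other MAPK phosphatases and feedback inhibitors 4 of 12 were called in control cells, all higher. The list's median log2 difference was 0.88 in control and 0.006 in knockout cells. Dusp2, Dusp7, Dusp9 and Spry3, of the members' own families, were at -0.68, 1.14, 0.24 and -0.71 in control cells, where only Dusp7 of these was called. In knockout cells the same genes were at -0.09, 0.12, 0.04 and -0.54, and none was called. Errfi1, which blocks the EGF receptor, was at 119 and 130 CPM in control total and at 576 and 502 CPM in control granule, a log2 difference of 2.12 (SE 0.27, adjusted p = 0.00751), and 1.45 in knockout cells (SE 0.26, adjusted p = 0.011). Rasa1, a GTPase activator of Ras, and Spred1, a relative of the Sprouty genes, were higher in control granule by 2.23 (SE 0.49, adjusted p = 0.0313) and 2.15 (SE 0.49, adjusted p = 0.0344). Il17rd, a membrane inhibitor of FGF signalling, was among the 2 of 12 called in knockout cells and was the 1 gene of the list called between genotypes in the granule fraction, at 2.41 and 2.22 CPM in control and 10.2 and 8.66 CPM in knockout cells (2.03, SE 0.35, adjusted p = 0.0167).

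ERK-responsive genes outside the members were higher in 5 of 13 cases in control granule and in 6 of 13 in knockout granule, with median log2 differences of 1.23 and 0.93. Fos rose from 13.3 and 12.1 CPM in control total to 97.2 and 89.9 CPM in control granule (2.88, SE 0.30, adjusted p = 0.00485) and by 3.61 in knockout cells (SE 0.31, adjusted p = 0.00213). Egr1 was higher by 2.78 (SE 0.30, adjusted p = 0.00485) in control cells. Between genotypes in the granule fraction, the cyclin gene Ccnd1 was lower by -2.32 (SE 0.26, adjusted p = 0.00541) and Etv1 higher by 2.36 (SE 0.39, adjusted p = 0.0142), the latter at 0.51 CPM in both control and 2.38 and 2.91 CPM in the knockout libraries. Of the exon bases of Ccnd1 23.4% overlap LTO1.

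Of 10 ERK cascade kinases 1 was called in control cells: Rps6ka2, a kinase downstream of ERK, at 68.7 and 67.8 CPM in control total and at 12.7 and 11.6 CPM in control granule (-2.49, SE 0.43, adjusted p = 0.017). In knockout cells Rps6ka2 (-2.47, adjusted p = 0.0101) and Map2k1 (-1.08, adjusted p = 0.0253) were lower and Mapk3 higher (1.11, adjusted p = 0.0491). Map2k1, which encodes a kinase that activates ERK, was at 164 and 162 CPM in control granule and at 88.3 and 69.7 CPM in knockout granule, a difference of -1.04 (SE 0.25, adjusted p = 0.0406). Of 14 JNK and p38 cascade kinases 1 was called in control cells, Map2k3 (1.07, adjusted p = 0.0438), and none in knockout cells; between genotypes in the granule fraction Map3k5 was higher (1.76, SE 0.29, adjusted p = 0.0137). Of 10 adaptor and Ras genes Nras was called higher in control granule (1.06, adjusted p = 0.0357).

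**Figure D4:**
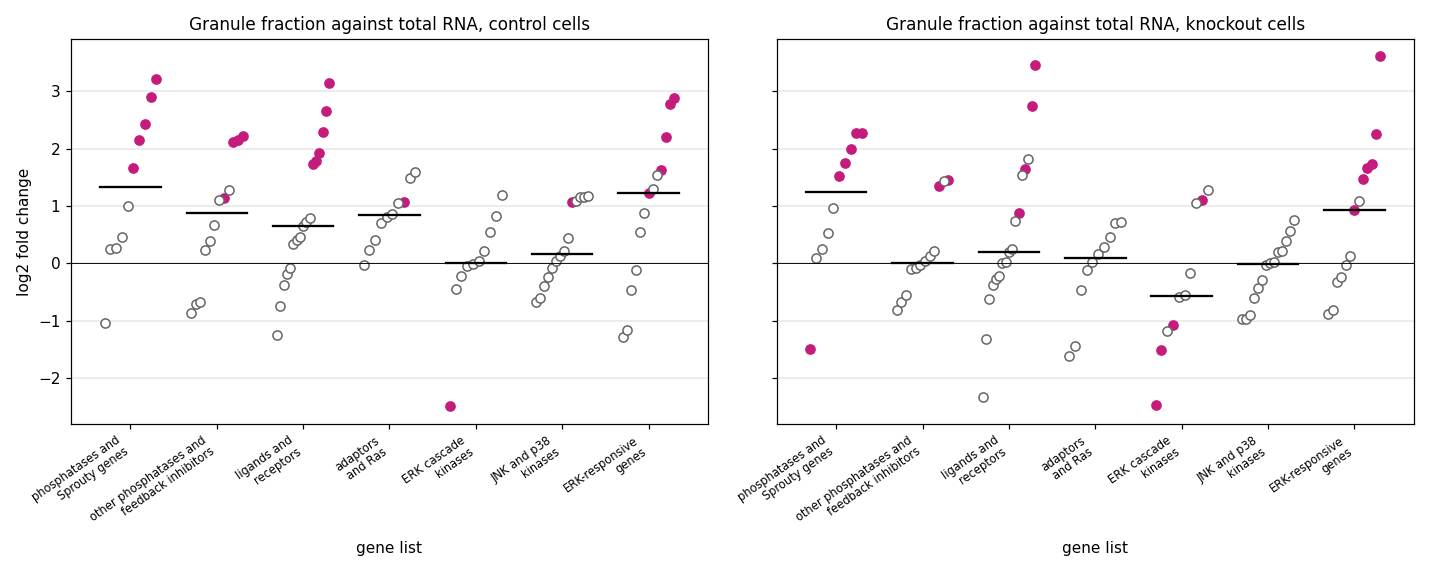
Log2 fold change of the genes of each list, granule fraction against total RNA, in control and in knockout cells; each point is 1 gene, filled where it passed the adjusted threshold, and the bar is the list's median. The members have medians of 1.33 and 1.24, the ERK-responsive genes 1.23 and 0.93, and the ERK cascade kinases 0.01 and -0.56.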

How the data were processed

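Poly(A) RNA of 8 libraries was sequenced. The deposited table holds raw counts per Ensembl gene, 1 column a library; the submitters' processing notes name STAR, DESeq2 and GRCm38/mm10, and the counting program, its strand setting and the annotation release are not given in the sources used here. Of 39017 identifiers 37693 matched GENCODE M21 (GRCm38), from which names, coordinates and transcripts were taken; the unmatched held at most 0.221% of the counts of a library. In R 4.3.3, edgeR 4.0.16 (TMM scaling, filterByExpr, robust quasi-likelihood F-test) fitted 1 mean a group to all 8 libraries, leaving 4 residual degrees of freedom. Benjamini-Hochberg adjustment covered 18952 genes, and a gene was called under an adjusted p of 0.05. CPM uses TMM effective library sizes, log2 CPM a prior count of 2, and the SE is the log2 change divided by the root of F. Besides the members and Mettl3, the genes named are, per list and comparison, the called ones of at least 1 CPM on average with the 3 largest changes; 1 listed gene is not reported here. Members and lists were chosen with earlier results of these data known. The procedure was tested on simulated data. Alternatives were DESeq2 1.42.0, other scalings and filters, a replicate block, removal of GC trends, fewer groups and leaving out each library. Counts without molecular identifiers are not independent molecules.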

Additional observations from a re-analysis of the deposited data

Results flagged for a closer look

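Of the members and listed pathway genes, 1 differed between genotypes in its granule to total difference by the interaction test. Of all genes tested, 0.517% did. The gene was Ccnd1, and 23.4% of its exon bases overlap LTO1. Ccnd1, which encodes cyclin D1, was at 88.5 and 67.2 CPM in control total and 240 and 239 CPM in control granule, and at 81.1 and 87.7 CPM in knockout total and 44.1 and 51.7 CPM in knockout granule. The granule to total difference in knockout minus that in control cells was -2.44 on the log2 scale (SE 0.36, adjusted p = 0.0437 by edgeR's quasi-likelihood test), with adjusted p-values from 2.21e-05 to 0.317 over the alternatives.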

How the results depend on the processing

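Of the members' values under the alternatives, 705 kept direction and side of the threshold, 71 passed where the reported value did not, 39 no longer passed and 25 changed sign. Members called under other settings, against 5 (control granule against control total), 6 (knockout granule against knockout total), 0 (genotypes, total), 0 (genotypes, granule) and 0 (interaction), differed as follows. DESeq2 called 7, 7, 3, 0 and 3 in that order (21.5%, 26.9%, 13.2%, 17.8% and 14.5% of all genes), no filter 6, 6, 3, 0 and 3 (13.2%, 17%, 11.2%, 11.2% and 11.5%) and removal of GC trends 7, 6, 2, 3 and 3 (19.7%, 32.5%, 3.92%, 23.5% and 7.93%). A fit of only the groups compared called 7, 0, 0 and 6 (42.4%, 0.00%, 0.00% and 57.3%; 6 members at an unadjusted p under 0.05 between knockout granule and knockout total and 1 between genotypes in total RNA). Median-of-ratios size factors and a filter at a mean of 5 CPM each called Dusp6 as the 1 member between genotypes in total RNA (0.475% and 0.653%). Leaving out 1 library gave 0 to 7, 0 to 7, 0 to 7, 0 to 5 and 0 to 5 calls in that order. The replicate block left the counts at 5, 5, 0, 0 and 0 (3.07%, 10.0%, 0.00%, 3.54% and 0.00% of all genes), Dusp4 losing its call in knockout cells. Deviations of libraries with the same replicate number correlated at -0.602 to 0.190 between groups. With 2 libraries a group and GC trends between the total libraries, this cannot decide whether the numbers pair the libraries. A crossed block, chosen after seeing the data, gave 6, 6, 1, 0 and 0 (12.4%, 16.9%, 0.591%, 8.94% and 0.496% of all genes). Over all genes, 78 differed between genotypes in total RNA as reported, 3407 without a filter, 2506 by DESeq2 and 0 with the replicate block (3474 at an unadjusted p under 0.05); between control granule and control total 1906 did as reported and 0 to 8118 leaving out a library. Library size alone moved the median of all genes from -0.06 to -0.19 in control cells and from 0.09 to 0.28 in the interaction. Sign changes, for which the cause was not tested, were all of values that had not passed as reported. They were, for the interaction, Dusp1 (0.0288 by library size alone, 0.0416 with the 5 CPM filter, -0.51 to 0.0578 leaving out a library), Spry2 (-0.077 without a filter, -0.14 to 0.16), Spry1 (-0.0323 with GC trends removed) and Dusp10 (-0.89 to 0.0689). Between knockout granule and knockout total it was Dusp10 (-0.0261 without a filter, -0.39 to 0.54). Between genotypes in total RNA they were Dusp1 (0.0395) and Spry1 (0.42) with GC trends removed and, leaving out a library, Dusp4 (-0.0358 to 0.72), Dusp5 (-0.51 to 0.61) and Spry1 (-0.36 to 0.0217). In the granule fraction they were Dusp4 (0.0693 with the 5 CPM filter, -0.32 to 0.0288) and Dusp6 (-0.23 to 0.38). The lowest count of a member in a library was 344, so that depth was not the limit of detection for any member.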
